A study of Mus musculus with 5 samples.

Results

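The genes described here encode the heat shock proteins and the DnaJ family of chaperones, measured in mouse aorta. They were chosen by name: each probe set whose single annotated gene symbol began with Hspa, Hspb, Hspd, Hspe, Hsph, Hsp90 or Dnaj was a member. The rule took 122 probe sets of 61 genes out of 22626 probe sets and 12393 named genes on the array. Of these, 95 probe sets of 52 genes passed the filter on low signals and were tested, and 27 probe sets, among them all those of 9 genes, did not. Members were kept apart by the compartment in which the protein works, which was assigned here from general knowledge of the genes: 40 genes cytosolic or nuclear, 10 of the endoplasmic reticulum (ER) and 9 mitochondrial. A further 2 genes, Hspbp1 and Hspb11, carry the prefix but belong to neither chaperone family proper.

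The study compared aortas of male mice of the strain BKS.Cg-m +/+ Lepr db/J, homozygous (db/db) or heterozygous (db/+) for the db mutation of the leptin receptor. Lacking the signalling form of the receptor, db/db mice overeat, become obese and develop diabetes, and db/+ mice of the same colony, which carry 1 mutant copy, served as controls. The mice were aged 16 to 20 weeks on regular chow, and the vessels had been freed of adventitia and periaortic fat. Each array held the pooled RNA of 6 aortas, with 10 µg of RNA labelled with biotin, and 5 arrays were analysed, namely db/db replicates 1 to 3 together with db/+ replicates 2 and 3. The mutation acts in the whole animal, and the design does not assign a difference to any one cell type of the wall.

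Array medians lay between 59 and 61.5 signal units, and 19.0% to 22.0% of the probe sets of an array were under 16. With so few arrays, no value can be more precise than their spread allows. Smooth muscle markers were present in every array, with summed signals of 23177 to 28208 in db/db and 21219 to 24060 in db/+ over 8 genes, none at 0. Markers of other cells were present too: cardiac muscle (12 genes) summed to 852 to 4536 in db/db and 1402 to 1845 in db/+, brown adipocytes (7 genes) to 5783 to 11256 and 7257 to 8360, and macrophages (9 genes) to 2274 to 2821 and 3886 to 5018. Of the macrophage genes, 8 had lower values in db/db at an unadjusted p under 0.05 and 0 were called. Adipocyte markers (6 genes) summed to 5463 to 9417.5 in db/db and 8288.5 to 8867 in db/+, and 1 was called, lower in db/db. Liver markers (7 genes) summed to 827 to 1174 in db/db and 1460.5 to 1496 in db/+. Of the 6 liver genes tested, 4 had lower values in db/db, 2 of them called, and 2 had higher values. In pooled tissue, fewer cells of a type and less RNA per cell cannot be told apart.

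Chaperones bind unfolded protein and help it fold or pass it on for degradation. Hsp70 proteins do so in cycles driven by ATP, DnaJ proteins bring them their clients and set off ATP hydrolysis, and nucleotide exchange factors such as the Hsp110 proteins release the client. Hsp90 acts later on kinases and steroid receptors, small heat shock proteins hold damaged protein in a state that can be refolded, and separate sets of these machines serve the cytosol, the ER and the mitochondrion. Heat shock factor 1 switches on the inducible cytosolic genes through heat shock elements, and the unfolded protein response switches on the ER genes through the ER stress element. In the artery wall the small heat shock proteins are abundant in smooth muscle.

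Both control elements were looked for in the 250 bases before the annotated starts of these genes, because they are the textbook binding sites of these stress responses. RefSeq promoter windows (build GRCm38.p6) matched 50 of the 61 genes, and 27025 genes in all had one. The ER stress element, CCAAT and CCACG with any 9 bases between them on either strand, occurred in 3 of the 9 ER genes with a window and in 0 of the 33 cytosolic and 0 of the 6 mitochondrial ones, against 0.13% of all genes. The 3 were Hspa5 (chr2:34772000-34772068, plus strand), Hsp90b1 (chr10:86705508-86705681, minus strand, with 2 matches) and Dnajc3 (chr14:118937802-118937870, plus strand), shown with the element in capitals.
Hspa5: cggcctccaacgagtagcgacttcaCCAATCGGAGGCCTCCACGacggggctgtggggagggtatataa
Hsp90b1: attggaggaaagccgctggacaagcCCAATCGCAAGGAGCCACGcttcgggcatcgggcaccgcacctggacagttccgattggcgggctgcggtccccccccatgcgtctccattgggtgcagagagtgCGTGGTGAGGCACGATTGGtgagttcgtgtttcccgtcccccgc
Dnajc3: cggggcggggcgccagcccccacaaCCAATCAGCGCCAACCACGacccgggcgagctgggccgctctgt

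A heat shock element of 3 alternating units, GAANNTTC and a further GAA after any 2 bases on either strand, was found for Hspd1, Hspe1 and Dnajb6, which is 6% of members with a window against 0.514% of all genes. Hspd1 and Hspe1 encode the paired mitochondrial chaperonins and are transcribed away from each other, with annotated starts 216 bases apart. The same stretch, in which 2 matches overlap, lies between both starts (capitals, chr1:55088053-55088082, plus strand). The shorter form with 2 inverted units, GAANNTTC, lies within the longer one and occurred in 10 of the 50 genes, 20% against 7.73% of all genes, among them the inducible Hsp70 genes Hspa1a (chr17:34972228-34972285, minus strand) and Hspa1b (chr17:34959310-34959367, minus strand), the small heat shock protein gene Hspb1 (chr5:135887777-135887854, plus strand, 2 matches) and Dnaja1 (chr4:40722319-40722376, plus strand). The printed stretches of Hspa1a and Hspa1b are identical. A match shows letters and is not proof of a bound site.
Hspe1 and Hspd1, read towards Hspe1: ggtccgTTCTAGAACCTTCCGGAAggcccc
Hspa1a: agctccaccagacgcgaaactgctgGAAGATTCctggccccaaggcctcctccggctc
Hspa1b: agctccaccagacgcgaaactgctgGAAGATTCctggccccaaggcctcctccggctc
Hspb1: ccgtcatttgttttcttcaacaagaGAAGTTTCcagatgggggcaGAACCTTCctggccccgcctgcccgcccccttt
Dnaja1: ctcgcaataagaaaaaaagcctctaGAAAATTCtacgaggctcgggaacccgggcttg

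The comparison asked whether chaperone transcripts differ between diabetic and control aortas. No heat shock protein or DnaJ gene passed the test in either direction. With limma at an adjusted p under 0.05, 0 of the 95 member probe sets were called, where 0.081% of the 13575 probe sets tested were called, and the smallest adjusted p of a member was 0.49. At an unadjusted p under 0.05 there were 3 member probe sets (3.16%), against 8.13% of all probe sets. Of the 3, 1 was higher in db/db, against 3.98% of all, and 2 were lower, against 4.15%. Every db/db array lay on one side of both db/+ arrays at 12 member probe sets (12.6%), against 25% of all.

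Log2 changes, here and below db/db minus db/+ on the scale of log2(signal + 16), were small in each compartment. Taking the brightest probe set of each gene, the median was 0.019 over 31 cytosolic genes, 0.029 over 10 ER genes and 0.071 over 9 mitochondrial genes, beside 0.021 over all 8263 genes tested. Positive values numbered 17 of 31, 5 of 10 and 6 of 9. With each array centred on its median the first 2 medians were −0.019 and −0.0085, and that over all genes −0.017. Only Dnajc15 lay beyond 0.5 in either direction, which is 1.92% of the 52 member genes against 6.2% of all genes. A miss of the threshold does not show that the genotypes were alike. The 95% interval of the difference lay within a 2-fold change either way for 48 of the 52 genes. That is 92.3%, near the 93.4% of all genes tested, and so is not particular to the members. The exceptions were Dnajb1, Dnajc2, Dnajc3 and Dnajc15.

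**Figure D1:**
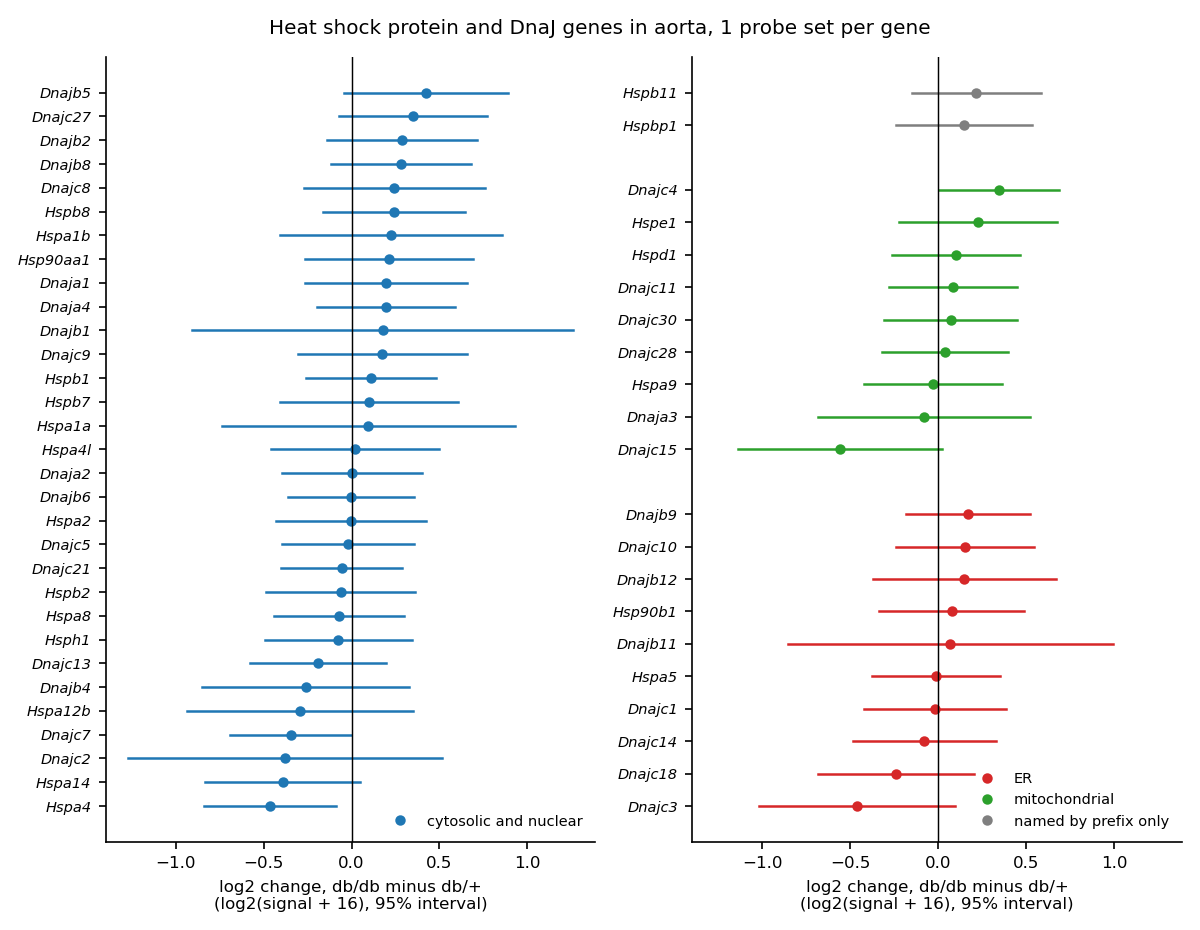
Log2 change between db/db and db/+ aortas (x axis, log2(signal + 16) scale) for the 52 tested genes, 1 probe set each, with the 95% interval from limma as a bar; colours give the compartment. The points lie between −0.56 for Dnajc15 and 0.42 for Dnajb5, and all bars but 3 (Hspa4, Dnajc7 and Dnajc4) cross 0.

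Hspa8, the constitutive cytosolic Hsp70, did not differ detectably at any of its 3 tested probe sets. Signals, given from here on in order of replicate number within each genotype, were 3302, 3167 and 2759 in db/db and 3383 and 3076 in db/+ (change of −0.073 on the log2 scale, SE 0.16, adjusted p = 0.94). Its second one gave 0.15 on the log2 scale. At the third, signals were 279.9, 748 and 334 in db/db and 667 and 341 in db/+ (log2 change −0.20), with 1 high array in each genotype. Levels of different probe sets are not comparable, and only the differences are set side by side.

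The stress-inducible Hsp70 genes Hspa1a and Hspa1b are near-identical copies, and their probe sets may read both. Hspa1a had 438, 425 and 839.8 in db/db and 739 and 342 in db/+ (change of 0.096 on the log2 scale, SE 0.37, adjusted p = 0.97). Hspa1b had 1609, 1631 and 2117 in db/db and 2123 and 1074 in db/+ (change of 0.23 on the log2 scale, SE 0.28, adjusted p = 0.89), and its other probe sets had log2 changes of 0.34 and 0.52 (adjusted p = 0.81 and 0.78). The arrays of the genotypes overlapped at all 4 probe sets, with db/+ replicate 2 within the db/db range or just above it and db/+ replicate 3 below every db/db array. With db/+ replicate 3 left out, the values turned to −0.44 for Hspa1a and −0.26 for Hspa1b, and without db/db replicate 3 Hspa1a was at −0.22. The direction thus rested on single arrays for both genes.

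Hspa4, a cytosolic Hsp110 protein that releases clients from Hsp70, had the smallest p among all members. Its brightest probe set had 194, 178 and 224 in db/db and 287 and 271 in db/+ (change of −0.46 on the log2 scale, SE 0.16, adjusted p = 0.49; unadjusted p = 0.0205), and all 3 db/db arrays were lower than both of db/+. The other probe sets of Hspa4 had log2 changes of −0.14 and −0.16, negative as well, but with arrays that overlapped. Hspa4 kept a negative value in all 17 settings tried, from −0.55 to −0.25, and passed in none. Some of these settings (filter, threshold, prior) cannot alter the log2 change of a probe set, so they are not 17 separate checks of its sign. Hsph1, the heat-inducible Hsp110 protein, had 900.2, 767 and 1035 in db/db and 1027 and 866 in db/+ (change of −0.075 on the log2 scale, SE 0.18, adjusted p = 0.95) and −0.059 at its second probe set. The genotypes overlapped for Hsph1.

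Among the remaining Hsp70 relatives, Hspa14, which works at the ribosome, had 69.2, 67.5 and 87.2 in db/db and 123 and 85 in db/+ (change of −0.39 on the log2 scale, SE 0.19, adjusted p = 0.66). Hspa12b, a distant Hsp70 relative of endothelial cells, had 26.9, 68.4 and 43.8 in db/db and 46.1 and 71.5 in db/+ (change of −0.30 on the log2 scale, SE 0.28, adjusted p = 0.86), with overlapping arrays. Of 8 endothelial markers, 5 had lower values in db/db at an unadjusted p under 0.05 and 0 were called, and their signals summed to 1179 to 1594 in db/db and 1853 to 1994 in db/+ with none at 0. Their part in the value of Hspa12b was not tested. Hspa4l and the testis-enriched Hspa2 had log2 changes of 0.019 and −0.0048 (adjusted p = 0.991 and 0.997).

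Hsp90aa1, the stress-inducible cytosolic Hsp90, was read by 3 probe sets, all with positive values that did not pass. The brightest had 1335, 1524 and 1730 in db/db and 1602 and 1071 in db/+ (change of 0.21 on the log2 scale, SE 0.21, adjusted p = 0.87), and the others had log2 changes of 0.23 and 0.15. At each of them db/+ replicate 2 lay within the db/db range or just above it, and db/+ replicate 3 lay below every db/db array. Without db/+ replicate 3 the value was −0.074.

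Of the 24 cytosolic and nuclear DnaJ genes, 17 were tested and 0 passed, with 10 positive and 7 negative log2 changes. Dnajb1 (Hsp40), the heat-inducible partner of Hsp70, had 450.1, 252 and 1087 in db/db and 441 and 440.1 in db/+, and 321, 145 and 842 in db/db and 307 and 255 in db/+ at its second probe set. The highest and the lowest array of Dnajb1 were both db/db, replicates 3 and 2. Its log2 changes of 0.18 (SE 0.48, adjusted p = 0.95) and 0.28 (adjusted p = 0.93) had intervals from −0.91 to 1.26 and from −0.98 to 1.55, both wider than a 2-fold change, and without db/db replicate 3 the first was −0.37. Dnaja1, which also works with Hsp70 in the cytosol, had 671, 578 and 887 in db/db and 632 and 589 in db/+ (change of 0.20 on the log2 scale, SE 0.20, adjusted p = 0.87) and 0.24 at its second probe set.

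The largest positive change of any member gene was that of Dnajb5, a cytosolic relative of Dnajb1, with 414, 385 and 372 in db/db and 361 and 227 in db/+ (change of 0.42 on the log2 scale, SE 0.21, adjusted p = 0.66). Its second probe set had 0.40 and the third −0.028, so they did not all point one way, and only at the first were all db/db arrays above db/+. Dnajc7 is a cochaperone that links Hsp70 and Hsp90. It had 194, 189.7 and 191 in db/db and 234 and 263 in db/+ (change of −0.35 on the log2 scale, SE 0.15, adjusted p = 0.61; unadjusted p = 0.0496), with the db/db arrays close together and all below db/+. Dnajc27, a small GTPase with a J domain, and Dnajb8, a suppressor of protein aggregation, had log2 changes of 0.35 and 0.28 (adjusted p = 0.69 and 0.76).

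The other cytosolic DnaJ genes span many tasks and showed no common direction. Dnajb2 (neuronal quality control) and the splicing-associated Dnajc8 had 0.29 and 0.24, while Dnajb4 and the ribosome-associated Dnajc2 had −0.26 and −0.38. The endosomal Dnajc13 had −0.19, the histone chaperone Dnajc9 0.17, Dnaja4 0.19 and Dnajc21, a factor of ribosome assembly, −0.057. Dnaja2, Dnajb6 and Dnajc5, the cysteine string protein of secretory vesicles, lay within 0.02 of 0 on the log2 scale at their brightest probe sets. The adjusted p of these genes lay between 0.77 and 0.999.

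Some inducible cytosolic chaperones varied widely between arrays of the same genotype. The SD of log2 signals within groups was 0.84 and 0.99 at the 2 probe sets of Dnajb1, which is the 99.7th and 99.8th percentile of all probe sets tested. It was 0.62 for Hspa1a (percentile 98.8) and 0.57 for the third probe set of Hspa1b (percentile 98.2), while the median was 0.20 over member probe sets and 0.19 over all. Outside this group, spreads at least as wide as that of the third Hspa1b probe set were those of the third probe set of Hspa8 (0.71), Dnajb11 of the ER (0.70), Dnajc2 (0.68), the second probe set of Hspa4 (0.63) and the second of Dnajb4 (0.58).

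**Figure D2:**
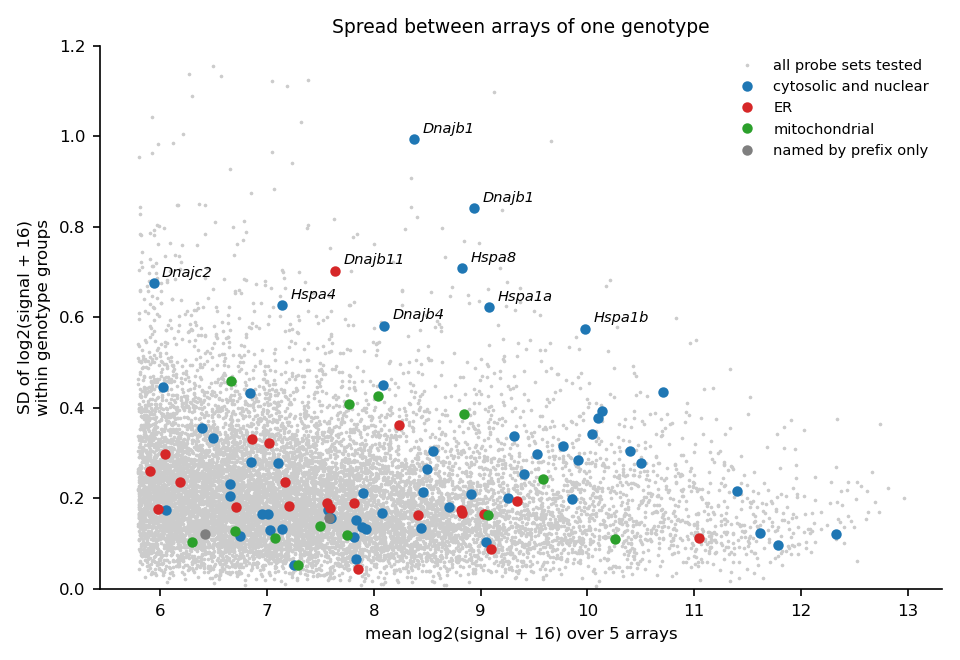
SD of log2(signal + 16) within genotype groups (y axis) against the mean log2(signal + 16) over the 5 arrays (x axis) for all 13575 probe sets tested (grey) and the 95 members (colours by compartment); 11 probe sets above an SD of 1.2 are not shown. Both probe sets of Dnajb1 stand near the top, whereas most members lie in the bulk of the cloud.

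The same arrays were mostly high over a wider group of inducible chaperones, Dnajb1, Hspa1a, Hspa1b, Hsp90aa1, Hsph1 and Dnaja1. Over their 13 tested probe sets, db/db replicate 3 was the highest db/db array at 11 (84.6%, against 30.6% of all probe sets tested). At 13 of 13, db/+ replicate 2 was above db/+ replicate 3 (48.6% of all). At the brightest probe set of Dnajb1 these 2 arrays were nearly equal, at 441.1 and 440.1. The group was put together after the values were seen and holds several probe sets of some genes, so these shares only describe it. Hsph1 and Dnaja1 had less extreme spreads (SD 0.20 and 0.25 at the brightest probe sets). Outside the group, the highest db/db array was replicate 1 for Hspb1 and Hspb8 and replicate 2 for Hspd1. At both probe sets of Hspe1 and of Dnajb4 it was replicate 3, so that order was not confined to the group. The higher db/+ array was replicate 2 for Hspe1 and replicate 3 for Dnajb4. Immediate early genes, which respond within minutes to growth signals and tissue handling, had a similar order. Over 12 of them db/db replicate 3 was the highest db/db array at 9 and db/+ replicate 2 the higher db/+ array at 12. Egr1, a transcription factor of this class, had 1671, 1536 and 3473 in db/db and 1876 and 1146 in db/+, and the stress factor Atf3 had 242, 136 and 409.8 in db/db and 280.5 and 112 in db/+. The summed signal of the 12 genes ran from 7244 to 12910 in db/db and from 7758 to 10793 in db/+, none was at 0, and none differed between genotypes at an unadjusted p under 0.05. The part of this array-to-array difference in the chaperone values was not tested, and the probe sets of 1 array share its pool and its scaling.

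**Figure D3:**
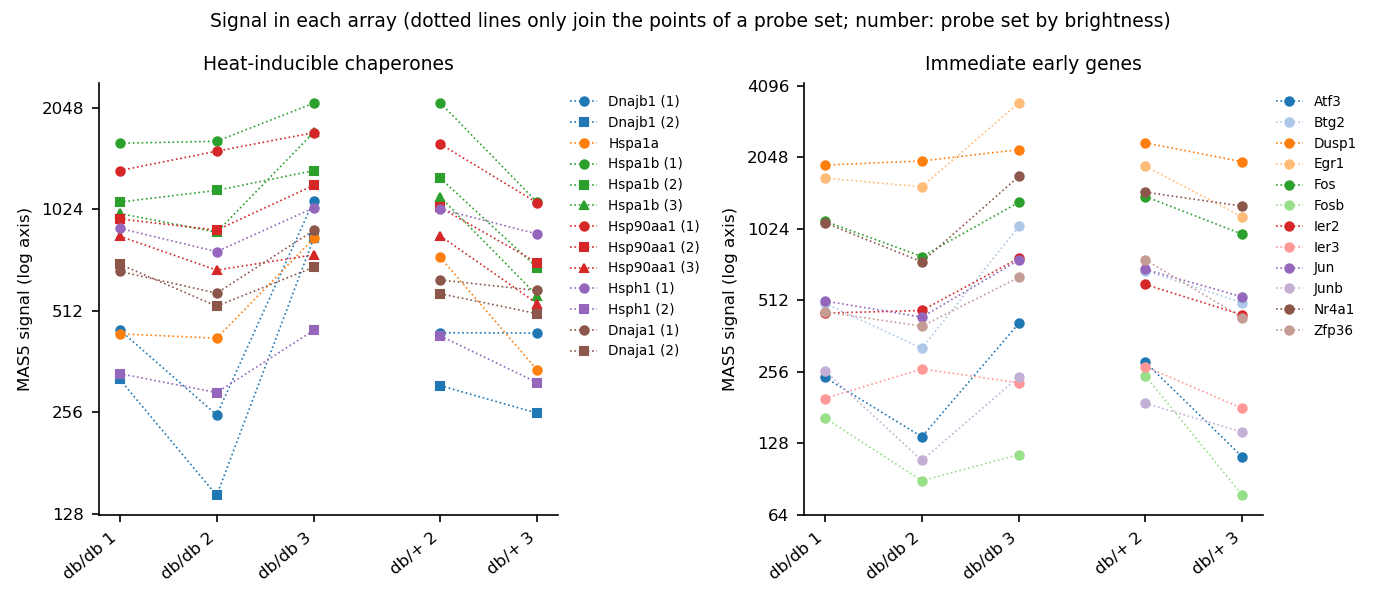
MAS5 signal in each array (y axis, log scale) for the inducible chaperones, all tested probe sets (left), and for 12 immediate early genes, the brightest probe set of each (right); dotted lines only join the points of a probe set. In both panels db/db replicate 3 and db/+ replicate 2 are mostly the high arrays of their genotype, and the genotypes overlap.

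Small heat shock proteins, of which 4 of 5 genes with a probe set were tested, showed no difference past the threshold. Hspb6 was not among the 5, as no probe set carried it as its single symbol. Hspb1 (Hsp25), which stabilises actin in smooth muscle, had 5939.7, 4919 and 5050.5 in db/db and 4986 and 4799.9 in db/+ (change of 0.11 on the log2 scale, SE 0.16, adjusted p = 0.91), and −0.036 at its second probe set. Hspb1 was thus nearly level across genotypes, with an interval from −0.26 to 0.48. Hspb8, which feeds damaged filament proteins into autophagy together with Bag3, had 470, 459 and 370 in db/db and 396 and 329.6 in db/+ (change of 0.24 on the log2 scale, SE 0.18, adjusted p = 0.80), and 0.16 and 0.24 at its other probe sets. All 3 values were positive, but arrays overlapped at each.

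Hspb7, the cardiovascular small heat shock protein, had 1375, 1605 and 1166 in db/db and 1574 and 1037 in db/+ (change of 0.099 on the log2 scale, SE 0.22, adjusted p = 0.94). Its highest db/db array was replicate 2, which was also the array with the highest summed signal of cardiac muscle markers, 4536 against 852 and 1066 in the other db/db arrays, with none of the 12 markers at 0, and their part in the value of Hspb7 was not tested. Without db/db replicate 2 the value was −0.014, and without db/+ replicate 3 it was −0.20. Hspb2, a muscle member that lies beside the crystallin gene Cryab, had 496, 374 and 515 in db/db and 450 and 507 in db/+ (change of −0.061 on the log2 scale, SE 0.19, adjusted p = 0.96). The genotypes overlapped for both genes.

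In the ER, 10 genes were tested and none passed or reached an unadjusted p under 0.05. Hspa5 (BiP), the Hsp70 of the ER and the classic target of the unfolded protein response, had 2183, 2152 and 1938 in db/db and 1958 and 2259 in db/+ (change of −0.010 on the log2 scale, SE 0.16, adjusted p = 0.99; interval −0.37 to 0.35). Its second probe set had 0.27 (adjusted p = 0.77). Hsp90b1 (Grp94), the Hsp90 of the ER, had 577, 708 and 663 in db/db and 699 and 536 in db/+ (change of 0.077 on the log2 scale, SE 0.18, adjusted p = 0.95), and −0.11 without db/+ replicate 3. At its second probe set all 3 db/db arrays were above db/+, with 484, 410.2 and 554 in db/db and 386 and 367 in db/+ (change of 0.34 on the log2 scale, SE 0.18, adjusted p = 0.68), but that difference did not pass either. Both genes carry the ER stress element in the sequences shown above.

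Dnajc3 (p58IPK), the third gene with the element, is a BiP cochaperone that also restrains the kinase PERK, and its value was negative. The brightest probe set had 284, 171 and 316 in db/db and 352 and 346 in db/+ (change of −0.46 on the log2 scale, SE 0.24, adjusted p = 0.69), and the second had 197, 204 and 188 in db/db and 246 and 252 in db/+ (change of −0.32 on the log2 scale, SE 0.15, adjusted p = 0.64). At both probe sets every db/db array was below db/+. The remaining 3 probe sets of Dnajc3 overlapped, with log2 changes of 0.00032, −0.23 and −0.090. The 3 genes with the element thus had changes of −0.010, 0.077 and −0.46 at their brightest probe sets and no shared direction.

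Dnajb9 (ERdj4), induced by the unfolded protein response, was higher in each db/db array, with 575, 535 and 567 in db/db and 529.7 and 463 in db/+ (change of 0.17 on the log2 scale, SE 0.16, adjusted p = 0.85), a difference that did not pass. Dnajb11 (ERdj3), a secreted BiP partner, had 185, 336 and 102 in db/db and 231 and 136 in db/+ (change of 0.068 on the log2 scale, SE 0.41, adjusted p = 0.98). Its arrays ranged widely in both genotypes, and without db/db replicate 2 its value was −0.33. Dnajc10 (ERdj5), a reductase of misfolded proteins, had 0.15 at its brightest probe set and −0.21 at the third. The membrane-bound Dnajb12, Dnajc1, Dnajc14 and Dnajc18 had 0.15, −0.020, −0.078 and −0.24, with adjusted p from 0.83 to 0.99.

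Mitochondrial members included the chaperonin pair, and 9 genes were tested with 0 called. Hspd1 (Hsp60), which forms the folding barrel, had 1115, 1327 and 1297 in db/db and 1167 and 1148 in db/+ (change of 0.10 on the log2 scale, SE 0.16, adjusted p = 0.91; interval −0.26 to 0.46). Hspe1 (Hsp10), its lid, had 789, 727 and 900.4 in db/db and 818 and 569.5 in db/+ (change of 0.23 on the log2 scale, SE 0.20, adjusted p = 0.84). At the second probe set of Hspe1 all db/db arrays were above db/+, with 223, 191 and 235 in db/db and 179.7 and 176 in db/+ (change of 0.26 on the log2 scale, SE 0.16, adjusted p = 0.76). The 2 genes share the heat shock element between their starts, and all 3 probe sets of the pair had positive values that did not pass. Without db/+ replicate 3, the low array, the brightest Hspe1 value was −0.027. Hspa9 (mortalin), the Hsp70 of the matrix, had 439.9, 567 and 560 in db/db and 530.5 and 528 in db/+ (change of −0.028 on the log2 scale, SE 0.17, adjusted p = 0.98), with overlapping arrays.

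Dnajc15 (MCJ), an inner membrane J protein that restrains respiration, had the largest change of all member genes. Its signals were 296, 328 and 557 in db/db and 544 and 587 in db/+ (change of −0.56 on the log2 scale, SE 0.26, adjusted p = 0.64; interval −1.14 to 0.023). Replicates 1 and 2 of db/db were low, while db/db replicate 3 lay between the db/+ arrays. Leaving out db/db replicate 3 gave −0.83 (adjusted p = 0.24), and leaving out db/db replicate 1 gave −0.39.

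Dnajc4 was the only member with a higher value in db/db at an unadjusted p under 0.05. It had 159, 160.2 and 149 in db/db and 116 and 123 in db/+ (change of 0.34 on the log2 scale, SE 0.15, adjusted p = 0.61; unadjusted p = 0.049), with each db/db array above db/+. Dnaja3 (Tid1), the partner of mortalin, had −0.080, Dnajc11, a protein of the cristae-organising complex, 0.083, Dnajc30 0.071 and Dnajc28 0.039 (adjusted p from 0.93 to 0.97).

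**Figure D4:**
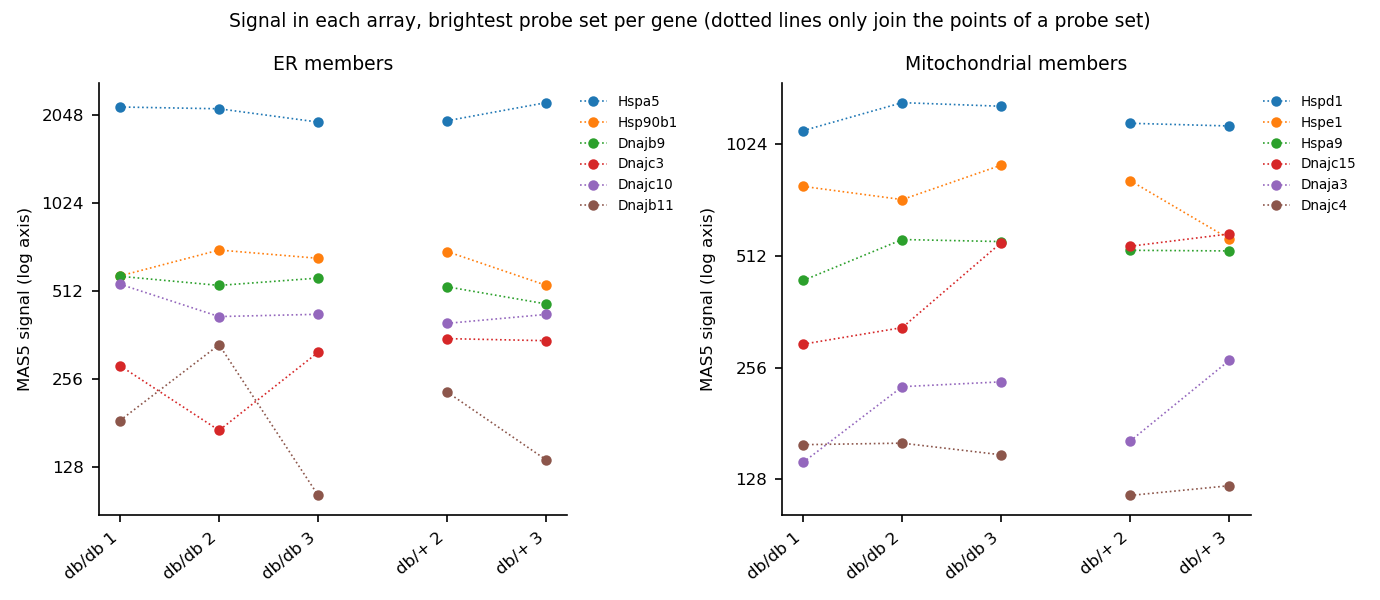
MAS5 signal in each array (y axis, log scale) for 6 ER genes (left) and 6 mitochondrial genes (right), brightest probe set of each; dotted lines only join the points of a probe set. Hspa5 and Hspd1 are nearly level, Dnajc4 is higher and Dnajc3 lower in each db/db array than in db/+, and db/db replicate 3 of Dnajc15 lies with the db/+ arrays.

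The 2 genes that share only the prefix had small positive values. Hspbp1, a nucleotide exchange factor of Hsp70, had 216, 164 and 174 in db/db and 165 and 164 in db/+ (change of 0.15 on the log2 scale, SE 0.17, adjusted p = 0.89). Hspb11 (IFT25), a protein of ciliary transport, had 76, 67 and 82.2 in db/db and 57.7 and 66.9 in db/+ (change of 0.22 on the log2 scale, SE 0.16, adjusted p = 0.81), with each db/db array just above db/+. Of the 28 member genes with more than 1 tested probe set, 14 had probe sets of both signs, among them Hspa8, Hspb1, Hspa5, Dnajb5 and Dnajc3.

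Genes that work with these chaperones were read from lists of partners, and none of them passed. Of 23 genes tested from the list of heat shock factors and cochaperones, 0 were called, 14 had positive and 9 negative values, and the median was 0.090. No heat shock factor was among those tested. Hsf2 and Hsf4 lay under the filter, and no probe set carried Hsf1 as its single symbol. The steroid receptor cochaperone Fkbp5, a known glucocorticoid target, had 410, 312 and 243 in db/db and 484 and 473 in db/+ (change of −0.58 on the log2 scale, SE 0.22, adjusted p = 0.53), and Tomm70a, a mitochondrial import receptor that docks Hsp70 and Hsp90, had 180.5, 197 and 181 in db/db and 156 and 95.4 in db/+ (change of 0.54 on the log2 scale, SE 0.20, adjusted p = 0.54). Cryab, the small heat shock protein αB-crystallin, had 678, 514 and 642 in db/db and 747 and 909 in db/+ (change of −0.43 on the log2 scale, SE 0.18, adjusted p = 0.60), and its second tested probe set overlapped at −0.14. A further probe set of Cryab, under the filter and untested, ran the other way, with 25.4, 32.0 and 28.7 in db/db and 19.6 and 21.5 in db/+. At the brightest probe sets of these 3 genes db/db and db/+ arrays were fully apart. The other 3 tested probe sets of Tomm70a overlapped, with −0.16, −0.14 and 0.22, so its probe sets did not share a sign. The second one of Fkbp5 had −0.78 and was lower in each db/db array.

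For the cytosolic chaperonin TRiC and prefoldin, 0 of 12 genes were called, with 7 positive and 5 negative values and a median of 0.011, and Cct6a, Cct2 and Cct8 had 0.32, −0.31 and −0.28. The second probe set of Cct6a had −0.062. ER folding partners gave 0 of 19, 10 positive and 9 negative, with a median of 0.053. The collagen chaperone Serpinh1 (Hsp47) had 2489.9, 2188 and 2051 in db/db and 1678 and 1256 in db/+ (change of 0.62 on the log2 scale, SE 0.18, adjusted p = 0.39; unadjusted p = 0.0091), higher in each db/db array, and 0.31 at its second probe set, likewise apart. Sdf2l1 and the lectin chaperone calreticulin, Calr, had 0.29 and 0.26 (adjusted p = 0.68 and 0.77), with each db/db array above db/+. The other probe sets of Calr had 0.47, likewise apart (adjusted p = 0.60), and 0.25, with overlapping arrays. Xbp1, a transcription factor of the unfolded protein response, had 1135, 1101 and 1119 in db/db and 1051 and 1058 in db/+ (change of 0.083 on the log2 scale, SE 0.15, adjusted p = 0.93), each db/db array slightly above db/+. Its other tested probe sets overlapped, with −0.32, 0.067 and −0.012. Hyou1, the exchange factor of BiP, had 0.17 and, at its second tested probe set, 0.27. Atf6, Edem1 and Manf of the same list had −0.16, −0.18 and −0.12 at their brightest probe sets, with each db/db array below db/+. Herpud1 had −0.049, and −0.37 at its second probe set. Of the 19 genes, 4 had every db/db array above db/+ and 3 every one below, 36.8% against 25.6% of all genes. Xbp1, Hyou1, Atf6, Edem1, Manf and Herpud1 were picked after their values were seen.

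Mitochondrial partners gave 0 of 12, with 6 positive and 6 negative values and a median of 0.058. The matrix protease Lonp1 had 279.8, 409 and 389.8 in db/db and 174 and 236 in db/+ (change of 0.76 on the log2 scale, SE 0.21, adjusted p = 0.34), with each db/db array above db/+. Clpx, the unfoldase of another matrix protease, had 51.6, 43.1 and 108 in db/db and 136 and 98 in db/+ (change of −0.74 on the log2 scale, SE 0.30, adjusted p = 0.59), with db/db replicate 3 between the db/+ arrays. The import pore gene Tomm40 had 0.23 (adjusted p = 0.79).

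The 9 member genes with no tested probe set were Dnajb3, Dnajb7, Dnajb13, Dnajc12, Dnajc17, Dnajc24, Dnajc5b, Hspa1l and Hspb3. Their signals were at most 56.3, reached by the axonemal gene Dnajb13 in db/db replicate 3, and Hspa1l and Dnajb3 are known mainly from testis. Hspb3, a small heat shock protein of muscle, had 29.2, 30.3 and 19.5 in db/db and 15.6 and 10.6 in db/+. Signals this low, near the offset of 16, were not compared.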

How the data were processed

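RNA of 5 pools of mouse aorta was hybridised to Affymetrix arrays, 3 of db/db and 2 of db/+. The deposited values are linear signal intensities per probe set, made by the authors with MAS5 (version not given in the sources used here), per the submitters' processing notes. The 2% trimmed mean was 150.05 on every array, so no further normalization was applied. Of 22690 probe sets, 64 controls were left out. The platform annotation gave 1 symbol for 20380, several for 691 and none for 1555.

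Values became log2(signal + 16), which understates changes of low signals. Probe sets with a mean above the 40th percentile (a signal of about 39.5) entered the two-sided test of limma 3.58.1 (R 4.3.3; lmFit and eBayes, no covariates, 3 residual and 5.63 prior degrees of freedom), with Benjamini-Hochberg adjustment over all 13575. Intervals are limma's 95% intervals. The fit was tested on simulated data with 200 changed probe sets, where it found 98.8% of 4-fold but only 56% of 2-fold changes. In the real data 11 probe sets were called. Adjustment is stricter where fewer probe sets change, so the simulated shares may be too high for these data. Nothing in the labels says that pools came from separate mice, so p-values measure the spread between arrays, which may be technical.

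The members and lists were chosen with earlier results of these data known. Genes named were the main chaperones, up to 4 further genes of each member list and 3 of each partner list with the smallest p. Others are given briefly so that all are accounted for. Hspb6 and Hsp90ab1 were listed as main chaperones, but no probe set carried either as its single symbol, so they were not read. Promoter windows came from RefSeq (GRCm38.p6), and the 50 bases after each start were not used. Alternatives covered the pseudocount, filter, normalization, eBayes prior, array weights, replicate block, threshold, averaging of probe sets and each array left out.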

Additional observations from a re-analysis of the deposited data

How the results depend on the processing

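No member probe set was called under any of the 16 alternatives, whereas calls over all probe sets were 2 with a pseudocount of 1, 37 with 64, 1 without the filter, 22 with a filter at the 60th percentile, 19 with median centring, 39 with the trended robust prior, 48 with array weights, 17 with probe sets averaged, 48 at a threshold of 0.1 and 0 to 28 with 1 array left out. With each array left out in turn, the median log2 change ran from −0.045 to 0.14 for cytosolic, −0.11 to 0.060 for ER and 0.034 to 0.13 for mitochondrial genes, with −0.045 for ER without db/db replicate 2. Of 777 values of 49 named genes, partner genes included, 32 changed sign, in 18 genes, and none passed. Over all 52 tested member genes, 28 changed sign under at least 1 setting and 24 kept it. The filter, threshold and prior cannot alter the log2 change of a probe set, and the block repeats the changes found without db/db replicate 1. The share of values that kept their sign is therefore partly fixed in advance. The cause was not tested.

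Among the named genes, signs turned for Hspb1 with quantile normalization (−0.014), Hspa4l with median centring (−0.019) and Dnajb11 with array weights (−0.086). With probe sets averaged they turned for Hspa5 (0.13) and Hspa4l (−0.0086). With each array left out in turn, Hspa9 ran from −0.090 to 0.088, Dnajc14 ran from −0.21 to 0.015, Dnajc30 ran from −0.027 to 0.13, Hsph1 ran from −0.20 to 0.047, Dnajb11 ran from −0.33 to 0.46, Dnajb12 ran from −0.048 to 0.34, Hspb7 ran from −0.20 to 0.40, Hspb2 ran from −0.14 to 0.078, Hspa1a ran from −0.44 to 0.63, Hspa8 ran from −0.14 to 0.0033, Dnajb1 ran from −0.37 to 0.65, Hspa5 ran from −0.11 to 0.092, Hspa1b ran from −0.26 to 0.71, Hsp90aa1 ran from −0.074 to 0.50, Hsp90b1 ran from −0.11 to 0.26, Hspe1 ran from −0.027 to 0.48 and Hspa4l ran from −0.32 to 0.36.

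The replicate numbers shared by both genotypes are 2 and 3. The labels do not say that a number marks a shared batch, so the arrays were not taken as pairs. Same-numbered arrays deviated with correlations of 0.11 and −0.0048, and db/db replicate 1 with db/+ replicate 3 also had 0.11. The deviations of the 2 db/+ arrays mirror each other, so these correlations can neither show nor exclude pairing. With the replicate number as a block, 20 probe sets were called, 0 of them members, and the medians were 0.032, 0.026 and 0.13. Since db/db replicate 1 has no partner, the block gave the values obtained without it for Hspa9 (0.088), Dnajc14 (0.015) and Dnajc30 (−0.027). Limits are the 5 arrays, with 1 left in db/+ when either is omitted, and signals near the offset.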
